A study of Mus musculus with 3 samples.

Results

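The 8 genes described here, *Btg1*, *Btg2*, *Btg3*, *Tob1*, *Tob2*, *Zfp36*, *Zfp36l1* and *Zfp36l2*, are the measured members of the BTG/TOB and ZFP36 families of mRNA decay regulators. They were chosen by symbol, and all 8 were found among the 27998 genes of the deposited matrix. Lumbar cords of heterozygous *Cx3cr1-creER-yfp* mice, labelled as strain C57BL/6, that were naive or had been taken 24 h or 48 h after transection of the sciatic nerve, which the methods describe as transection and ligation, were dissociated, and the YFP (+) cells, the labelled microglia, were collected by sorting. Cells of 3 animals were pooled per group and each group was sequenced as 1 droplet library, so there are 3 libraries without replicates and no test was made. In this line YFP marks every cell that uses the *Cx3cr1* promoter, which monocytes and other macrophages share with microglia. The cell barcodes end in 1, 2 or 3, and none of these suffixes is tied to a time point by a label, so the libraries are named by suffix only, the values below belong to unknown time points, and they say nothing about naive or injured animals.

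Proteins of the BTG/TOB family bind the catalytic subunits of the CCR4-NOT deadenylase and speed the shortening of poly(A) tails, and several of them were first described as brakes on cell division. The ZFP36 family, also called the tristetraprolin family, binds AU-rich elements in 3′ untranslated regions through CCCH zinc fingers and brings the same deadenylase to cytokine and growth factor mRNAs. *Zfp36* and *Btg2* are textbook early response genes whose own transcripts appear soon after a stimulus, and *Btg2* is also a target of p53.

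The upstream sequences of 4 genes are shown because these were the genes that were higher together in library 3 than in library 2. The set of RefSeq promoters used here covered 7 of the 8 genes and had no entry for *Zfp36l2*. Each line gives the 250 bases before the RefSeq transcript start, 5′ to 3′ on the strand of the gene, with the motifs that were found in capitals.
Btg2 promoter (GRCm38.p6, chr1:134079156-134079405, minus strand): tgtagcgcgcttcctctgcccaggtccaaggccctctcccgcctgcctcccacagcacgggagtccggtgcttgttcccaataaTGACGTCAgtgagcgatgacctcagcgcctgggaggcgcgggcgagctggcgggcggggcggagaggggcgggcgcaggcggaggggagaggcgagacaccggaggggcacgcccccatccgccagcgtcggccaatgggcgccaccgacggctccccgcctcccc
Zfp36 promoter (GRCm38.p6, chr7:28379229-28379478, minus strand): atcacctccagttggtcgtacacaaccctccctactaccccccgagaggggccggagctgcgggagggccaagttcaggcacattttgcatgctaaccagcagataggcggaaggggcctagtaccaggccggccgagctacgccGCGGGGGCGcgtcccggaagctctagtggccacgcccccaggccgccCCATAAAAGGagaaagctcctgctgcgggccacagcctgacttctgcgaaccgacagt
Zfp36l1 promoter (GRCm38.p6, chr12:80113014-80113263, minus strand): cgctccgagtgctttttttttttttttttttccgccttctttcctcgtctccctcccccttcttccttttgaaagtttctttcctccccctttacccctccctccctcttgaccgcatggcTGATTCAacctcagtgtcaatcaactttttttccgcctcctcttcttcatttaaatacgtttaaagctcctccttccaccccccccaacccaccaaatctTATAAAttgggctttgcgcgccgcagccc
Btg1 promoter (GRCm38.p6, chr10:96616751-96617000, plus strand): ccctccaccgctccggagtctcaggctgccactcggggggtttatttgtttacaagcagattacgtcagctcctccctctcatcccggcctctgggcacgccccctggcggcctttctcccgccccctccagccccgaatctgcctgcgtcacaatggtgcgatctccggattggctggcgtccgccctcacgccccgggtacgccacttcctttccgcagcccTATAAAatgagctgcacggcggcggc

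The capitals in *Btg2* are a cAMP response element (CRE, TGACGTCA), 166 to 159 bases before the start. Of all 32851 RefSeq promoter windows of this length, 1.55% held that sequence on either strand. The *Zfp36* window held a CArG box, the element bound by serum response factor, 58 to 49 bases before the start (present in 1.47% of all windows), and an EGR site (GCGGGGGCG) 105 to 97 bases before it (2.57%). The *Zfp36l1* window held TGATTCA 129 to 123 bases before the start and a TATA box (TATAAA) 29 to 24 bases before it. TGATTCA matched the loose pattern searched for AP-1, TGANTCA, which allows any base in the middle and stood in 6.75% of all windows. In *Btg1* the only match was a TATA box 26 to 21 bases before the start, and TATAAA stood in 12.4% of all windows. The *Tob1* window also held TATAAA, 1 of the 2 *Btg3* windows held an NF-kB site (7.25% of all windows), and that of *Tob2* held none of the 6 motifs. These are matches of letters and were not tested for binding.

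The AU-rich elements that ZFP36 proteins recognize were searched in the longest annotated 3′ untranslated region of each gene (GENCODE M21, GRCm38), as the nonamer TTATTTATT and the shorter heptamer TATTTAT. The 3 ZFP36 genes carried them themselves, and the lines below show the nonamer, in capitals, with 9 bases on each side.
Zfp36: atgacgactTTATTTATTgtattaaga
Zfp36l1: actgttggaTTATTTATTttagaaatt
Zfp36l2: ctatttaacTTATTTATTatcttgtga

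Each of these 3 genes held 1 nonamer and 3 heptamers. Among 21037 genes, 7.65% held the nonamer and 27.6% the heptamer. Genes with at least 3 heptamers made up 1.44% of the genes with a region of similar length to that of *Zfp36* (774 bases), 4.62% for *Zfp36l1* (1835 bases) and 4.55% for *Zfp36l2* (1822 bases). *Btg2* and *Tob2* held 1 heptamer each and no nonamer, and *Btg1*, *Btg3* and *Tob1* held neither, although the region of *Btg1* was the longest of the 8 at 4166 bases.

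Each UMI (unique molecular identifier) stands for 1 captured mRNA molecule. Library 1 had 609 cells with a median of 2218 UMIs, library 2 had 3591 cells with 5952 and library 3 had 3322 cells with 5742. The labelled cell type was checked first: the microglia markers *P2ry12*, *Tmem119* and *Csf1r* were each found in over 25% of the cells of every library. Markers of other cell types were low but not absent. *Ccr2* of monocytes had 3, 12 and 14 UMIs in libraries 1, 2 and 3, *S100a8* of neutrophils 0, 45 and 51, and *Pf4* of perivascular macrophages 1, 27 and 15, while *Cd163*, *Lyve1*, *Ly6g*, *Cd3e* and *Cldn5* had 0 in each. *Gzma* of cytotoxic lymphocytes had 225 UMIs in 145 cells of library 2 and 0 in the other libraries, and the embryonic globin *Hbb-y* had 0, 246 and 122. The endothelial marker *Pecam1* had 47, 356 and 392 UMIs. The most widespread was *Mag* of oligodendrocytes, with 45.4, 36.6 and 50.5 counts per 1000000 UMIs (CPM) and a UMI in 9.36%, 21.6% and 25.8% of all cells. Whether such UMIs come from free RNA was not tested, and shares of cells at or below that of *Mag* are not read here as expression. Barcode sequences shared by libraries were few, 5 between libraries 1 and 2, 3 between 1 and 3 and 19 between 2 and 3.

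Library 3 stood apart from the others for these genes. To compare cells at equal depth, 2000 UMIs were drawn at random from each cell (thinning), which left 408, 3569 and 3284 cells and dropped 201, 22 and 38 shallower ones. A thinned cell held a median of 3.5 UMIs of the 8 genes together in library 1, 2 in library 2 and 9 in library 3, with 5th to 95th percentiles of 1 to 8, 0 to 6 and 3 to 19. Together the 8 genes took 0.184%, 0.137% and 0.504% of the thinned UMIs. The median number of the 8 genes found in a cell was 2, 2 and 4. Other transcripts were also highest in library 3: a list of 22 immediate early genes that holds none of the 8 had a mean of 8.51, 8.54 and 62.5 UMIs per thinned cell, and 7 heat shock genes had 1.44, 2.85 and 5.89. Their part in the values below was not tested.

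*Btg2* had the largest difference of the 8 when all cells were summed. Its level was 337 CPM in library 1 (exact 95% Poisson interval 307 to 370). In library 2 it was 288 CPM (281 to 295), and in library 3 it reached 2310 CPM (2289 to 2331). These intervals, like all those below, cover counting error only and not the spread between animals. Library 3 was thus 8.03-fold above library 2 (7.83 to 8.24) and 6.85-fold above library 1 (6.24 to 7.53), while libraries 1 and 2 lay close together with library 1 slightly higher. At equal depth 45.8%, 42.0% and 95.4% of cells held a *Btg2* UMI, so in library 3 nearly every cell did. Cells there held a median of 4 UMIs (5th to 95th percentile 1 to 11), and 42.8% held at least 5, against 0.490% and 0.392% in libraries 1 and 2. The variance of the *Btg2* counts in library 3 was 2.18 times the mean, the largest such ratio of the 8 genes, where counting alone gives 1. This ratio can grow with the mean, which was also the largest here at 4.55 UMIs, so it does not rank the genes by unevenness.

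*Btg1*, the closest relative of *Btg2* and a factor associated with quiescent lymphocytes, followed another order. Its level was 663 CPM in library 1 (621 to 708), 364 CPM in library 2 (357 to 372) and 948 CPM in library 3 (934 to 961). All 3 intervals were apart, with library 1 in the middle. Library 3 was 2.60-fold above library 2 (2.54 to 2.67) and 1.43-fold above library 1 (1.34 to 1.53), and library 2 was at 0.549 times library 1 (0.513 to 0.589). At equal depth the shares of cells with a UMI were 69.4%, 52.0% and 79.6%.

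The remaining BTG/TOB genes differed less. *Tob2*, a larger family member with a poly(A) binding protein interaction motif, had 46.2 (35.4 to 59.2), 47.4 (44.7 to 50.2) and 51.6 (48.5 to 54.9) CPM, intervals that overlapped throughout, and was found in 8.09%, 8.80% and 10.5% of thinned cells. *Btg3* had 9.68 (5.15 to 16.6), 6.85 (5.84 to 7.98) and 10.9 (9.52 to 12.5) CPM, and *Tob1* had 5.96 (2.57 to 11.7), 4.81 (3.98 to 5.77) and 7.03 (5.91 to 8.30). For both genes the library 3 interval was above that of library 2 and overlapped that of library 1, which rested on 13 and 8 UMIs. They were seen in at most 2.70% and 1.49% of thinned cells. Before thinning *Btg3* was found in 2.13%, 4.46% and 6.20% of cells and *Tob1* in 1.31%, 3.12% and 3.91%, below *Mag* in every library, and *Tob2* in 9.03%, 26.1% and 26.1%, close to it.

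*Zfp36*, which encodes tristetraprolin, resembled *Btg2*. It had 99.8 CPM in library 1 (83.6 to 118), 93.1 CPM in library 2 (89.3 to 97.0) and 628 CPM in library 3 (617 to 640). The intervals of libraries 1 and 2 overlapped and that of library 3 was far above them, 6.75-fold over library 2 (6.45 to 7.07) and 6.30-fold over library 1 (5.31 to 7.52). The share of thinned cells with a UMI was 16.4%, 16.5% and 68.1%.

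*Zfp36l1* was also highest in library 3, with a smaller difference. Its level was 263 (236 to 292), 277 (270 to 284) and 892 (879 to 905) CPM, so that library 3 was 3.22-fold above library 2 (3.13 to 3.31) and 3.39-fold above library 1 (3.05 to 3.78), and libraries 1 and 2 did not differ beyond counting error. The shares of thinned cells were 36.5%, 40.9% and 78.4%.

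*Zfp36l2* did not share this pattern, although its protein carries similar zinc fingers and its 3′ untranslated region the same elements as shown above. It had 424 CPM in library 1 (390 to 460), 240 CPM in library 2 (234 to 246) and 257 CPM in library 3 (250 to 264). Here library 1 was the highest and libraries 2 and 3 lay within 1.07-fold of each other (1.03 to 1.11). Library 2 was at 0.567 times library 1 (0.520 to 0.619) and library 3 at 0.606 times (0.556 to 0.662). The shares of thinned cells were 56.1%, 38.0% and 39.6%.

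**Figure D1:**
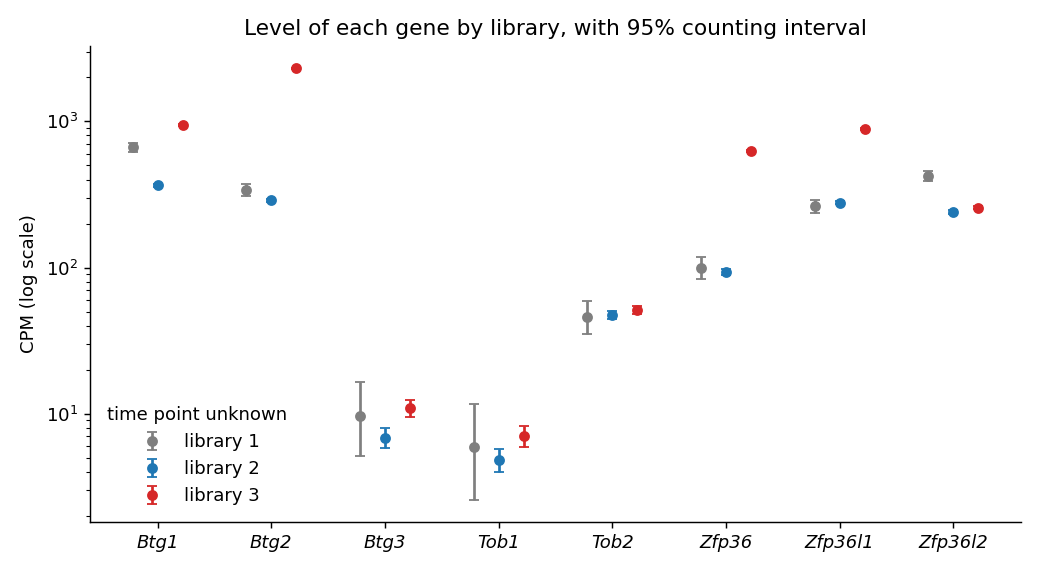
CPM (counts per 1000000 UMIs, log axis) of each of the 8 genes in library 1 (grey), 2 (blue) and 3 (red), with bars for the exact 95% Poisson interval, which is narrower than the point where it cannot be seen. *Btg2* is at 2310 and *Zfp36* at 628 in library 3, while *Zfp36l2* is highest in library 1 at 424 and *Tob2* stays between 46.2 and 51.6.

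**Figure D2:**
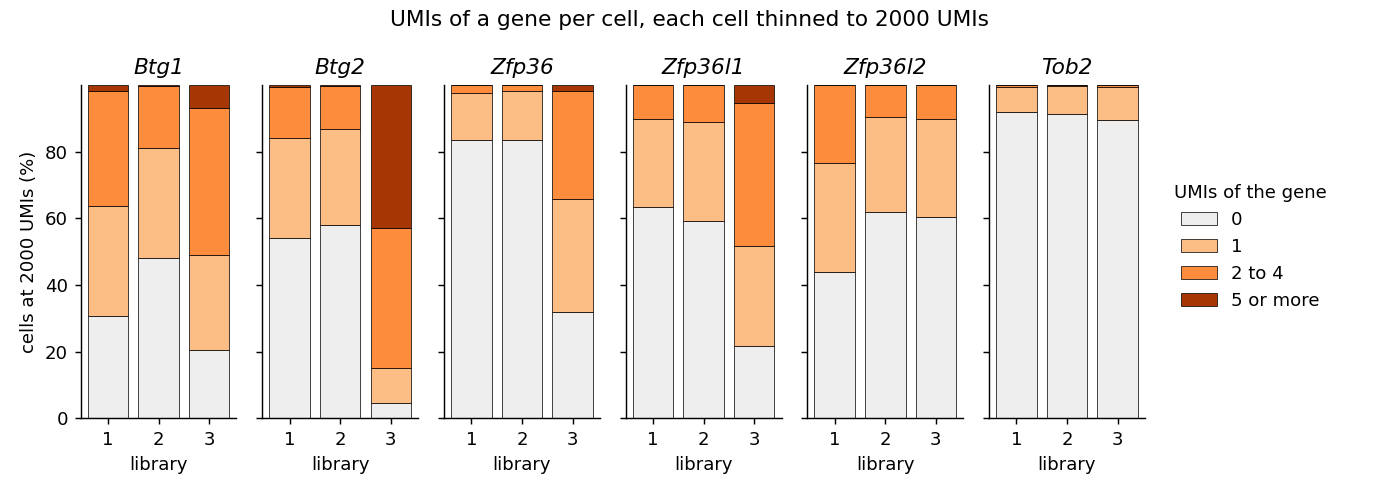
Share of cells (%) with 0, 1, 2 to 4 or 5 or more UMIs of a gene in each library, for cells thinned to 2000 UMIs (408, 3569 and 3284 cells). In library 3, 4.60% of cells held no *Btg2* UMI and 42.8% held 5 or more, whereas the 3 bars of *Tob2* look alike.

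These ratios were set beside those of all genes. Of the 8 genes, 6 had a mean of at least 10 CPM over the libraries, as did 8130 genes in all, and *Btg3* and *Tob1* were below it. Past 2-fold between library 3 and library 2, on the log2 scale with 1 added to each value, 4 of the 6 were higher (*Btg2*, *Zfp36*, *Zfp36l1* and *Btg1*), where 1.32% of all genes were, and 0 were lower, where 1.92% of all genes were. Only 20 of the 8130 genes had a larger ratio than *Btg2*, 24 a larger one than *Zfp36*, 54 than *Zfp36l1* and 69 than *Btg1*. Against library 1, 3 of the 6 were higher in library 3 (*Btg2*, *Zfp36* and *Zfp36l1*) beside 3.62% of all genes, and 0 were lower beside 5.01%. Between libraries 2 and 1, 0 were higher beside 4.55% and 0 were lower beside 3.7%, with *Btg1* and *Zfp36l2* closest to the limit. The first 2 comparisons share library 3. *Btg1*, *Btg2*, *Zfp36* and *Zfp36l1* are on the study's own list of genes that differ between S-phase cells of 2 time points, which was chosen on these samples, so their difference is not independent evidence.

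**Figure D3:**
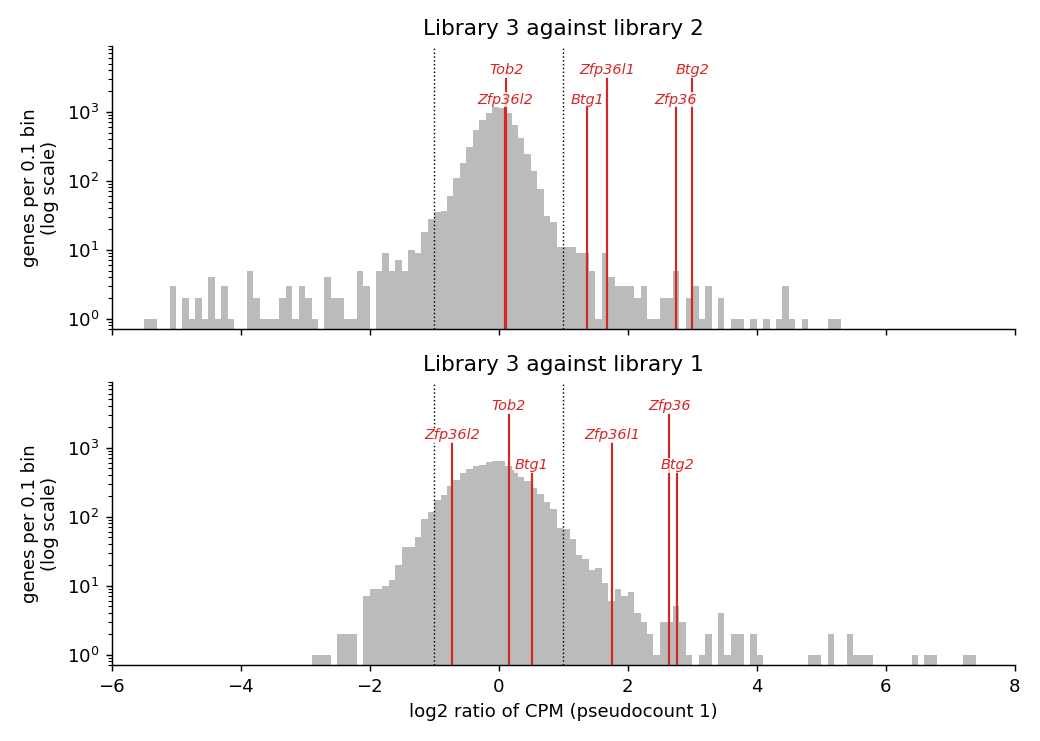
Number of genes (log axis) by the log2 ratio of CPM, library 3 against library 2 above and against library 1 below, for 8130 genes in bins of 0.1, with red lines at the 6 genes of the 2 families that passed the level filter and dotted lines at 2-fold. *Zfp36* lies at 2.74 in the upper panel and 2.64 in the lower, with *Btg2* to its right in both, and *Zfp36l2* lies at 0.10 and -0.72.

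The libraries also differed in cell division, so the 8 genes were compared between dividing and other cells within a library. A thinned cell was called mitotic with at least 3 UMIs of 28 mitosis genes such as *Top2a* and *Mki67*, otherwise replicating with at least 3 UMIs of 22 replication genes such as *Mcm3* and *Tyms*, and otherwise other. None of the 8 genes is in these lists. Library 1 had 2 mitotic and 4 replicating cells of 408, library 2 had 1086 and 568 of 3569, and library 3 had 7 and 226 of 3284. The mitotic class is a range and not a type: in library 2 the cells formed no separate groups by mitosis UMIs, with 605 cells at 0, 1005 at 1, 873 at 2 and 470 at 3, and the other cells of library 2 still had 35.5 CPM of *Mki67*, against 0.819 in those of library 3. Comparisons were made where both classes held at least 50 cells, that is for library 2 and for the replicating cells of library 3.

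In library 2 *Btg1* and *Btg2* were lower in dividing cells. *Btg1* had 437 CPM (416 to 458) in other cells, 351 (318 to 387) in replicating and 330 (306 to 355) in mitotic cells, which is 0.756 times the other cells (0.691 to 0.825) for mitotic and 0.804 times (0.719 to 0.897) for replicating cells. *Btg2* had 341 (323 to 360), 253 (224 to 284) and 266 (245 to 289), ratios of 0.780 (0.706 to 0.861) and 0.741 (0.650 to 0.843). For both genes the intervals of the 2 dividing classes overlapped each other and lay below that of the other cells. The size of these differences varied with the settings tried: the log2 ratio of mitotic to other cells was between -0.72 and -0.18 for *Btg1* and between -0.60 and -0.19 for *Btg2*, and that of replicating to other cells between -0.41 and -0.13 and between -0.50 and -0.21.

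The ZFP36 genes differed less between these classes. *Zfp36l1* was at 0.883 times the other cells in mitotic cells (0.796 to 0.979) and 0.967 times in replicating cells (0.850 to 1.10). *Zfp36* had 91.1, 89.8 and 93.9 CPM in other, replicating and mitotic cells, and *Zfp36l2* had 263, 234 and 238, with ratios whose intervals included 1. With all UMIs of the same cells, *Zfp36l2* was at 0.893 times the other cells in mitotic (0.842 to 0.946) and 0.908 times in replicating cells (0.842 to 0.979), and *Zfp36* at 0.920 (0.838 to 1.01) and 0.865 (0.763 to 0.979). *Tob2* had 46.2 (39.7 to 53.5), 31.7 (22.2 to 43.9) and 53.4 (44.1 to 64.1), on 177, 36 and 116 UMIs.

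With only 6 genes and the low shares of all genes given here, counts of 0 or 1 past 1.5-fold say little about these genes. Past 1.5-fold in library 2, 0 of the 6 genes above the level filter were higher in mitotic than in other cells beside 3.48% of 7981 genes, and 0 were lower beside 1.1%. Between replicating and other cells 0 were higher beside 3.36% and 0 lower beside 2.38%. Between mitotic and replicating cells 1 was higher, *Tob2* at 1.69-fold (1.15 to 2.52), beside 4.5%, and 0 were lower beside 2.79%. All UMIs of the same cells gave 1.22-fold for *Tob2* (1.01 to 1.47), and all UMIs of those with 7000 to 12000 UMIs gave 1.62-fold (1.19 to 2.24), while another thinned draw reversed it (log2 ratio -0.13). By rank, *Btg1* and *Btg2* were among the lower genes of mitotic against other cells, with 323 and 440 of the 7981 genes below them.

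Deeper counts and cells of like depth were examined because mitotic cells of library 2 held more UMIs, a median of 7204 against 5599 in other cells. With all UMIs of the same cells, *Btg1* was at 0.748 times the other cells (0.713 to 0.785) and *Btg2* at 0.747 times (0.708 to 0.788) in mitotic cells. Among cells with 7000 to 12000 UMIs, 447 mitotic with a median of 8827 and 381 other with 8239, the ratios were 0.744 (0.685 to 0.807) for *Btg1* and 0.655 (0.597 to 0.718) for *Btg2*. *Zfp36l1* was at 0.845 (0.771 to 0.926), *Zfp36* at 0.828 (0.709 to 0.966) and *Zfp36l2* at 0.944 (0.854 to 1.04). The *Zfp36* value depended on the counts and classes used. Its log2 ratio of mitotic to other cells was -0.03 in these same cells when thinned. With all UMIs of cells of every depth it was -0.12, and with cell cycle scores it was 0.32. No direction is therefore read for *Zfp36* here.

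In library 2 the level of *Btg1* was lower in cells with more mitosis UMIs. In cells with 0, 1 to 2, 3 to 4, 5 to 7 and at least 8 such UMIs (605, 1878, 703, 221 and 162 cells) it had 458, 404, 361, 271 and 278 CPM, and cells with at least 8 were at 0.607 times those with 0 (0.480 to 0.759). *Btg2* had 323, 320, 284, 213 and 259, a ratio of 0.802 whose interval reached 1 (0.626 to 1.02). *Zfp36l2* was at 0.759 times (0.572 to 0.993), and *Tob2*, on 23 and 54 UMIs, at 1.59 times (0.932 to 2.64). *Tob1* had 0 UMIs in the 162 cells with at least 8, an exact interval that reaches 11.4 CPM, above its level in each of the 3 libraries. Median depth rose over these bands too, from 5729 to 9916.5 UMIs.

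**Figure D4:**
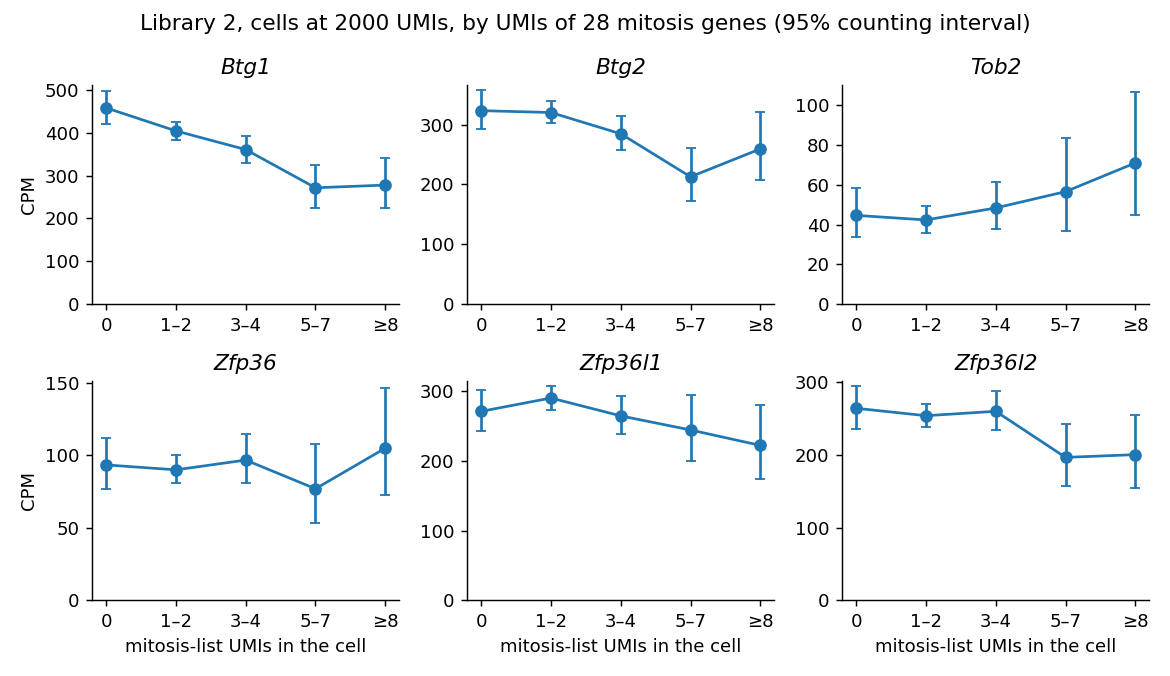
CPM (linear axes from 0) of 6 genes in cells of library 2 with 0, 1 to 2, 3 to 4, 5 to 7 or at least 8 UMIs of the 28 mitosis genes, each cell at 2000 UMIs, with exact 95% Poisson intervals. *Btg1* goes from 458 in the first band to 278 in the last, and the intervals of *Zfp36* and *Tob2* overlap across all bands.

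In library 3 the 226 replicating cells could be set against 3051 other cells. This class too is a range: 1544 cells of library 3 held 0 replication UMIs, 1062 held 1, 446 held 2 and 145 held 3. It had 2.21 CPM of *Mki67*, against 0.819 in the other cells. With a mean of 0.849 replication UMIs per cell, some cells can reach the limit of 3 through counting alone. How many did so was not tested. *Btg2* had 2064 CPM (1934 to 2201) against 2293 (2255 to 2331), and *Zfp36* 524 (460 to 596) against 630 (610 to 650), ratios of 0.900 (0.842 to 0.962) and 0.832 (0.727 to 0.949). All UMIs of these cells gave 0.855 (0.824 to 0.886) and 0.852 (0.794 to 0.913). These differences depended on the class definition. The log2 ratio of *Btg2* was -0.15 here, -0.002 with a class limit of 2 UMIs and 0.05 with cell cycle scores. That of *Zfp36* was -0.26, -0.13 and -0.10. Past 1.5-fold, 0 of the 6 genes were higher beside 7.58% of 7850 genes, and 1 was lower, *Tob2* at 0.542 times (0.293 to 0.921) on 14 UMIs, beside 6.28%. With all UMIs of these cells *Tob2* was at 0.898 times (0.697 to 1.14). In thinned cells the intervals of *Btg1*, *Zfp36l1* and *Zfp36l2* included 1, and with all UMIs the ratios were 0.946 (0.895 to 0.999), 0.980 (0.927 to 1.04) and 0.876 (0.784 to 0.976).

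The libraries were also compared within the class of other cells, which in library 2 still held a mean of 1.10 mitosis UMIs per cell against 0.0698 in library 3. In this class library 3 was above library 2 by 6.72-fold for *Btg2* (6.35 to 7.12), 6.91-fold for *Zfp36* (6.19 to 7.74), 3.02-fold for *Zfp36l1* (2.83 to 3.23) and 2.14-fold for *Btg1* (2.03 to 2.26). *Zfp36l2* was at 1.01-fold (0.930 to 1.09). Here *Zfp36* rather than *Btg2* had the largest ratio, also against library 1 (6.84-fold and 6.49-fold). In all thinned cells the log2 ratios of *Zfp36* and *Btg2* were 2.71 and 2.70 against library 1, and 2.75 and 2.90 against library 2. Between libraries 2 and 1, *Btg1* was at 0.663 times (0.601 to 0.732) in these cells and *Zfp36l2* at 0.618 times (0.546 to 0.700). The *Btg1* log2 ratio was -0.86 with all UMIs of all cells, -0.75 in all thinned cells and -0.59 in the thinned other cells, so thinning made part of the shift. *Zfp36l1* was at 1.17-fold (1.01 to 1.37), *Btg2* at 0.965 times (0.848 to 1.10) and *Zfp36* at 0.990 times (0.768 to 1.29).

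Within a library the thinned cells were then ranked by their UMIs of the 22 immediate early genes and cut into 3 groups of equal size, of which the upper and the lower group were compared. This was done for the 8 genes only, so no share of all genes stands beside the ratios. All of the 22 but *Egr2*, *Ier3* and *Nr4a1* are on the study's list chosen on these samples, as are *Btg1*, *Btg2*, *Zfp36* and *Zfp36l1*. In library 3 these groups of 1094 cells held a mean of 88.3 and 38.5 such UMIs. *Btg2* had a mean of 6.23 UMIs per thinned cell in the upper and 2.51 in the lower group, 2.49-fold (2.38 to 2.60). *Zfp36* followed with 2.12-fold (1.957 to 2.30), *Zfp36l1* with 1.64-fold (1.54 to 1.75), *Btg1* with 1.52-fold (1.43 to 1.62) and *Zfp36l2* with 1.36-fold (1.21 to 1.53). *Tob1* was at 3.13-fold (1.37 to 8.02) with a UMI in 2.29% and 0.731% of cells, *Btg3* at 1.05-fold (0.533 to 2.08), and *Tob2* went the other way at 0.746-fold (0.568 to 0.978).

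The lower group of library 3 still held much *Btg2*. A *Btg2* UMI was found in 90.0% of its cells and in 99.5% of the upper group, and the mean of 2.51 was above the 0.782 of the upper group of library 2. In library 2, where the groups of 1189 cells held a mean of 12.7 and 4.88 early UMIs, *Btg2* was at 1.68-fold (1.51 to 1.86), *Zfp36* at 1.27-fold (1.05 to 1.53), *Btg1* at 1.21-fold (1.10 to 1.32) and *Zfp36l1* at 1.16-fold (1.04 to 1.29). The lower group of library 2 held 34.0% mitotic cells and the upper 27.5%. Within the class of other cells *Btg2* was at 1.51-fold and *Btg1* at 1.11-fold, and 3 instead of 4 of the 8 genes had an interval above 1. These counts have no share of all genes beside them and are not read as a result about the 8 genes. In library 1, with 136 cells a group, *Zfp36* was at 1.89-fold (1.04 to 3.55) and *Btg2* at 0.745-fold (0.553 to 1.001). The upper group of library 3 was deeper before thinning, with a median of 6034 against 5034.5 UMIs, and held 6.34 against 5.28 heat shock UMIs per cell, and the part of these was not tested.

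**Figure D5:**
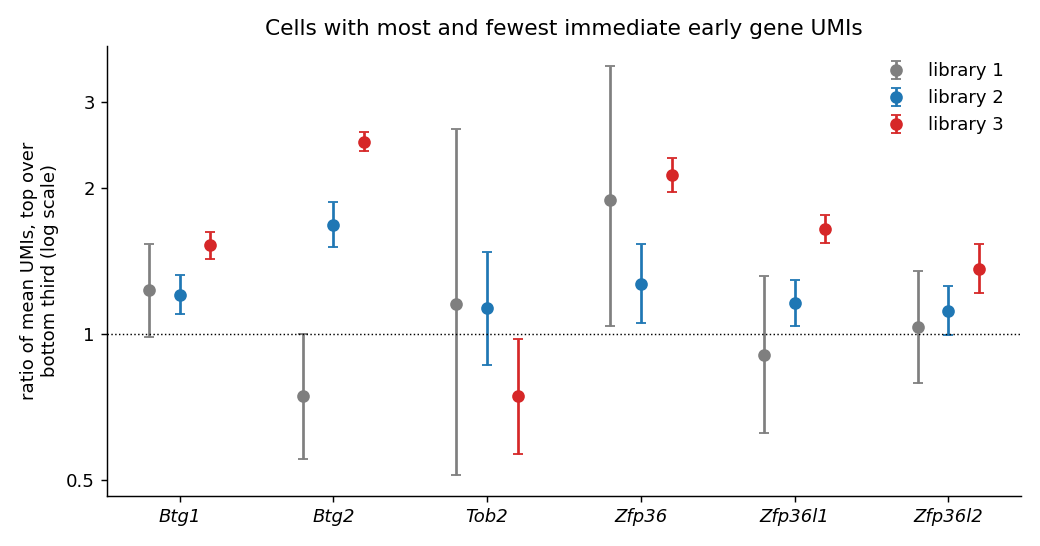
Ratio (log axis) of the mean UMIs per thinned cell between the upper and the lower of 3 equal groups of cells ranked by UMIs of 22 immediate early genes, for 6 genes in library 1 (grey), 2 (blue) and 3 (red), with exact 95% intervals for the ratio of counts and a dotted line at 1. *Btg2* is at 2.49 in library 3, 1.68 in library 2 and 0.745 in library 1, and *Tob2* in library 3 is below 1.

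Over single cells some of the 8 genes varied together in library 3. As a description over its 3284 cells, which share library and depth, the Pearson correlation of log-transformed thinned UMIs was 0.378 between *Btg2* and *Jun*, 0.375 between *Btg2* and *Fos* and 0.360 between *Btg2* and *Junb*, the 3 genes most like *Btg2* of 1428 compared. For *Zfp36* the nearest were *Junb* at 0.220, *Btg2* itself at 0.218 and *Fos* at 0.210. *Zfp36l1* was nearest to *Fos* at 0.201 and *Btg2* at 0.166, and *Btg1* to *Fos* at 0.164, *Jun* at 0.163 and *Btg2* at 0.130. Pairs without *Btg2* were weaker: *Btg1* and *Zfp36l1* were at 0.114 (0.083 with a second draw), *Zfp36* and *Zfp36l1* at 0.090, and *Btg1* and *Zfp36* at 0.082. *Fos*, *Jun* and *Junb* are on the study's list chosen on these samples. For *Zfp36l2*, *Tob1*, *Tob2* and *Btg3* no correlation reached 0.1, and in library 2, over 3569 cells, none did for any of the 8. The genes compared, 1428 in library 3 and 1439 in library 2, were those with a UMI in at least 20% of thinned cells. The share of all gene pairs that reach 0.1 was not computed. Low counts limit such correlations. *Btg2* and *Zfp36* had means of 0.608 and 0.184 UMIs per thinned cell in library 2, against 4.55 and 1.25 in library 3. *Btg3* and *Tob1* had a UMI in 2.01% and 1.49% of thinned library 3 cells. Low values here therefore do not show that these genes varied apart.

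Listed genes are called measured, here and below, where their mean over the 3 libraries was at least 10 CPM. No gene of the measured decay machinery passed 2-fold between libraries 3 and 2. Of 10 measured CCR4-NOT genes 0 did, with a median log2 ratio of 0.01, and *Cnot4*, *Cnot2* and *Cnot3* lay between 0.936 and 1.23 times library 2. The counts were also 0 of 4 for other deadenylases and poly(A) binding proteins, where *Pabpc1* was at 1.19-fold, 0 of 14 for decapping and 5′ decay, 0 of 11 for the exosome, where *Exosc2* was at 0.611 times, 0 of 12 for other RNA-binding regulators of decay, where *Zc3h12a* (regnase-1) was at 1.48-fold, and 0 of 11 for kinases and partners of the members, where *Mapkapk2*, the kinase that phosphorylates tristetraprolin, was at 1.37-fold. These stand beside the 1.32% and 1.92% of all genes given above. Against library 1 some did pass 2-fold, and these are named after their values were seen: *Exosc2* was at 0.485 times library 1 in library 3, *Prmt1* was at 2.78-fold in library 3 and 2.43-fold in library 2, and *Lsm2* and *Lsm4* were at 2.48-fold and 2.34-fold in library 2. The relatives with tissue-restricted expression were nearly absent, *Btg4* with 0 UMIs and *Zfp36l3* with 1 UMI in all cells.

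Of the 15 measured transcripts with AU-rich elements that are known ZFP36 targets, 11 were past 2-fold higher in library 3 than in library 2 and 0 lower, with a median log2 ratio of 2.09. Of all genes, 1.32% were higher and 1.92% lower. The 15 are those of 22 listed targets with a mean of at least 10 CPM, and the other listed targets were not counted. Library 3 itself raises that mean, so a target can pass the filter through its level there. How many did so was not counted, but *Dusp1*, *Fos* and *Ccl4* were above 10 CPM in every library. *Dusp1*, a phosphatase of MAP kinases, was at 35.7-fold, *Fos* at 22.1-fold and *Ccl4*, a chemokine, at 8.33-fold. Some of these genes, such as *Fos* and *Dusp1*, are also in the immediate early list, of which 21 of 21 measured genes were past 2-fold higher with a median log2 ratio of 3.02. Of 10 measured p53 targets 1 was past 2-fold higher than in library 2, *Plk3* at 2.18-fold, while *Cdkn1a*, the best known of them, was at 1.05-fold (1.01 to 1.09). Against library 1, 2 of these 10 were higher in library 3 beside 3.62% of all genes, and 1 was lower beside 5.01%. Their median log2 ratio was 0.41, and *Cdkn1a* had 178, 279 and 292 CPM in libraries 1, 2 and 3. The part of p53 was not tested. Like the 4 members, all genes of the immediate early list but *Egr2*, *Ier3* and *Nr4a1* are on the study's list chosen on these samples. Of the ZFP36 targets, *Ccl3*, *Ccl4*, *Fos* and *Dusp1* are on it. The differences of these genes are therefore not independent evidence. All values here are levels of mRNA, and decay rates were not measured.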

How the data were processed

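The authors deposited counts of UMIs per gene and cell in a single unnormalized matrix, with the 3 libraries side by side (27998 genes, 7522 cells). The submitters' processing notes name Cell Ranger 2.1.1 and the genome build mm10. How cells were called and whether the libraries were brought to equal read depth is not stated there or in the methods. The libraries hold 1343055, 24097543 and 19769170 UMIs.

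All 7522 cells were used, and doublets were kept. UMIs were summed per gene and library, or per class of cells, and scaled to 1000000 UMIs (CPM). Intervals are exact at 95%: Poisson for levels, Clopper-Pearson for shares, conditional binomial for ratios. Ratios across all genes were log2 ratios with a pseudocount of 1 over genes with a mean of at least 10 CPM. Thinning drew 2000 UMIs per cell without replacement (seed 1). Genes of the mitosis and replication lists were left out of the class comparisons.

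The members and all gene lists were chosen with earlier results of these data known. All 8 members were named, from each list at most the 3 genes with the highest mean CPM and the 2 with the largest ratio of library 3 to library 2, and for each member its 3 nearest genes by correlation. Promoters came from RefSeq (GRCm38.p6) and untranslated regions from GENCODE M21. The ratio step was tested on simulated counts. Alternatives were a cell filter (at least 200 genes, at least 500 UMIs, at most 10% mitochondrial UMIs), other thinning depths and seeds, other class limits, cell cycle scores, pseudocount 10, no filter on low values, at least 2 UMIs per cell, 4 in place of 3 groups of cells by early genes and centring on the median gene. Cells of 7000 to 12000 UMIs, and at least 8 mitosis UMIs against 0, were chosen after seeing the data. The scripts ran in Python 3.11.15 with scanpy 1.11.5, scipy 1.17.1, numpy 2.4.6 and matplotlib 3.10.9. The result of 1 microglia marker is not reported here.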

Additional observations from a re-analysis of the deposited data

How the results depend on the processing

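With 1 library per time point, no barcode suffix tied to a time point and counting intervals only, no difference here can be separated from a difference between the libraries as such. No paired analysis was possible because each group has 1 library. Under every alternative tried, the counts of the 8 genes past 2-fold between libraries stayed within 1.5 times the values given. The counts past 1.5-fold between classes of cells were small and moved. In library 2, mitotic against other cells, 1 gene was lower instead of 0 with class limits of at least 5 UMIs, without the filter on low values, with at least 8 mitosis UMIs against 0 (where 1 was also higher) and within cells of 7000 to 12000 UMIs, where 1 was also lower in replicating than in other cells. For mitotic against replicating cells, 0 instead of 1 were higher with class limits of 2 or 5 UMIs, with cell cycle scores, with all UMIs and with a second random draw, and 1 instead of 0 was lower without the filter. For replicating against other cells of library 3, 0 instead of 1 were lower with a limit of 2 UMIs, with cell cycle scores, with all UMIs and with the second draw, where 1 was higher. *Tob2* changed direction with that draw, to log2 ratios of -0.13 (mitotic against replicating, library 2) and 0.47 (replicating against other, library 3), but in cells of 7000 to 12000 UMIs, counted in full, it was at 1.62-fold (1.19 to 2.24) in mitotic against replicating cells. Among other cells alone, 1 pair of members instead of 0 had a correlation of at least 0.1 in library 1. Of 658 alternative values 2 were reversed, and 86 values of single genes or pairs and 18 counts moved. A ratio between libraries or classes was counted as reversed only where its main value was past the fold limit. Smaller ratios could therefore change sign without being counted. Of the 86 moved values, 24 were shares at 2 or more UMIs and 24 were shares at 1000 UMIs per cell. Both are lower by design. Leaving out the filter on low values cannot change a ratio, and the cell filter removed no cell of libraries 2 and 3. The *Btg1* log2 ratio of mitotic to other cells went from -0.40 to -0.18 with cell cycle scores, and that of *Btg2* from -0.36 to -0.19 with the second draw. That of *Tob1*, on few UMIs, went from -0.85 to 0.22 with this draw. In replicating against other cells of library 3, the *Btg2* log2 ratio went from -0.15 to 0.05 with cell cycle scores. The causes were not tested.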

Other observations

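Heat shock transcripts, which the comparisons above use only as a value beside the members, were also highest in library 3. Of 6 measured, 3 were past 2-fold higher than in library 2 and 0 lower, beside 1.32% and 1.92% of all genes. The 6 are those of 7 listed with a mean of at least 10 CPM over the 3 libraries. *Hspa1a* and *Hspb1* (0.745, 0.581 and 59.0 CPM) passed that filter only through library 3, so their direction was fixed by it. *Hspa1a*, an inducible HSP70 gene, had 0, 5.60 and 148 CPM (counts per 1000000 UMIs) in libraries 1, 2 and 3, *Dnajb1*, its co-chaperone, had 35.0, 65.0 and 254, and *Hspa8*, the constitutive form, had 582, 1174 and 2178. The number of mitosis genes past 2-fold was 22 of 22 measured, all of them higher in library 2 than in library 3, with a median log2 ratio of library 3 to library 2 of -4.46. *Top2a* had 6.70, 195 and 5.82 CPM. Of 20 measured replication genes, 13 were past 2-fold lower in library 3 than in library 2, *Tyms* with 22.3, 119 and 23.9, whereas *Mcm3* had 35.0, 72.0 and 59.9. *Rrm2*, with 3.72, 50.8 and 1.57 CPM, also passed the filter only through library 2.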
